A study of Mus musculus with 8 samples.

Results

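Igf2, Dlk1, Peg3, Plagl1, Cdkn1c, Grb10 and Ndn are imprinted genes that act on growth before and shortly after birth. They were taken by symbol from a table of 21895 genes measured in the mouse cochlea, and all 7 had a row. Cochlear RNA was sequenced from wild-type mice and from mice lacking miR-29a, giving 8 libraries in all, numbered 1 to 4 within each group (WT and KO). WT animals carried both copies of miR-29a and KO animals carried none (miR-29a-/-). Both groups were on the C57BL/6 background, came from heterozygous parents and could include females and males. The sample labels give an age of 21 days and the study's methods give 2 months, and no library of a second age was analysed, so no level was compared between ages. Nothing in the labels says whether a library holds 1 animal or several, so the spread between libraries may in part be technical. miR-29a itself was not analysed here, so its loss was not checked in these libraries.

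An imprinted gene is transcribed mainly from the copy inherited from one parent, under the control of DNA regions whose methylation differs between the copies from egg and sperm. Igf2, Dlk1, Peg3, Plagl1 and Ndn are expressed from the paternal copy, and Cdkn1c from the maternal copy. Grb10 is expressed from the maternal copy in most tissues and from the paternal copy in neurons. Many of these genes are highly expressed in growing organs of the fetus and newborn and are known to decline together in several organs as growth slows.

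The mature miR-29a-3p sequence is shown because the deletion removes it, with the seed (bases 2 to 8) in capitals. It is the RefSeq entry at chr6:31062673-31062694 of GRCm38.p6, minus strand.
miR-29a-3p: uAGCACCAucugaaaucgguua

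The match to this seed on a transcript is the 7 letters TGGTGCT, searched on the transcript strand only. The longest annotated 3′-UTR held it in 0 of the 7 genes, against 2294 of 14942 tested genes with a 3′-UTR (15.4%). Outside these 3′-UTRs, 4 of the 7 genes had 1 such match each in GENCODE M21 transcripts. The matches are shown with 9 bases on each side, since they are complementary to the seed of miR-29a-3p, the deleted miRNA. The capitals mark the match. Other members of the miR-29 family were not analysed here. The Igf2 match lay at chr7:142655776-142655782 (GRCm38, minus strand) in 8 of 9 transcripts, and it was coding sequence in 7 of them. The Dlk1 match lay at chr12:109460158-109460164 (plus strand) in the coding sequence of 8 of 10 transcripts. The Peg3 match at chr7:6711334-6711340 (minus strand) was in 2 of 4 transcripts, as coding sequence in 1 and as 3′-UTR in the other. The Grb10 match at chr11:11950297-11950303 (minus strand) was in 1 noncoding transcript of 9.
Igf2: agtcgatgtTGGTGCTtctcatctc
Dlk1: ccagcctggTGGTGCTgggcaccgt
Peg3: ttttgagtgTGGTGCTgagatgaga
Grb10: tctatggccTGGTGCTgcccacatt

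Plagl1, Cdkn1c and Ndn had no match in any annotated transcript. A match is a description of the letters and no binding was measured.

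The values are FPKM (fragments scaled by transcript length and by the mapped fragments of the library), which puts genes and libraries on a common scale. Comparisons between libraries still depended on the scaling, as the splits of calls below show. In WT1 the highest gene, Gm8797, held 7.09% of the summed FPKM. The median of all genes was 2.685 FPKM in WT1 and 3.181 to 3.997 FPKM in the other libraries. The depth, estimated from the smallest step between low values, was 21530000 to 26360000 fragments per library. WT1 and WT3 each correlated with the other libraries at 0.725 to 0.92 over the tested genes, and least with each other. In WT1, 52.1% of tested genes had their lowest value. Markers of tissue around the cochlea also differed between libraries. The summed FPKM of 8 neutrophil lineage genes was 9442.9 in WT1, 51.7 to 905.7 in WT2 to WT4 and 1669.4 to 5072.5 in KO, with the lowest sum in WT3 and S100a9 the highest gene. Cochlear markers were present in every library, with sums of 26.2 to 47.0 for 8 hair cell genes (Ocm the highest) and 199.0 to 465.6 for 7 supporting cell genes (Gjb2 the highest). Results are given with and without WT1, the only single library whose removal changed the number of the 7 genes called. That choice rests in part on the values of these genes. WT1 was the lowest library for 6 of them, so leaving it out raises their WT mean in advance. Their calls without WT1 are therefore a description and not independent support for a change.

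A gene was called when its unadjusted limma p was under 0.05, the threshold that the study applied to DESeq2 p-values. None of the 7 genes was called when all 8 libraries were compared, where 5.12% of all tested genes were. The plot of FPKM by library shows that the WT libraries spread more widely (by the SD on the log2 scale) than the KO libraries for 6 of the 7 genes, and that WT1 was the lowest of all 8 libraries for 6 of them, Grb10 being the exception. Without WT1, Peg3, Cdkn1c and Ndn were called as lower in KO, where 7.4% of all tested genes were, and every KO library lay below every remaining WT library. None of these calls held after adjustment over all genes, and leaving out the lowest WT library moves the change downward in advance.

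**Figure D1:**
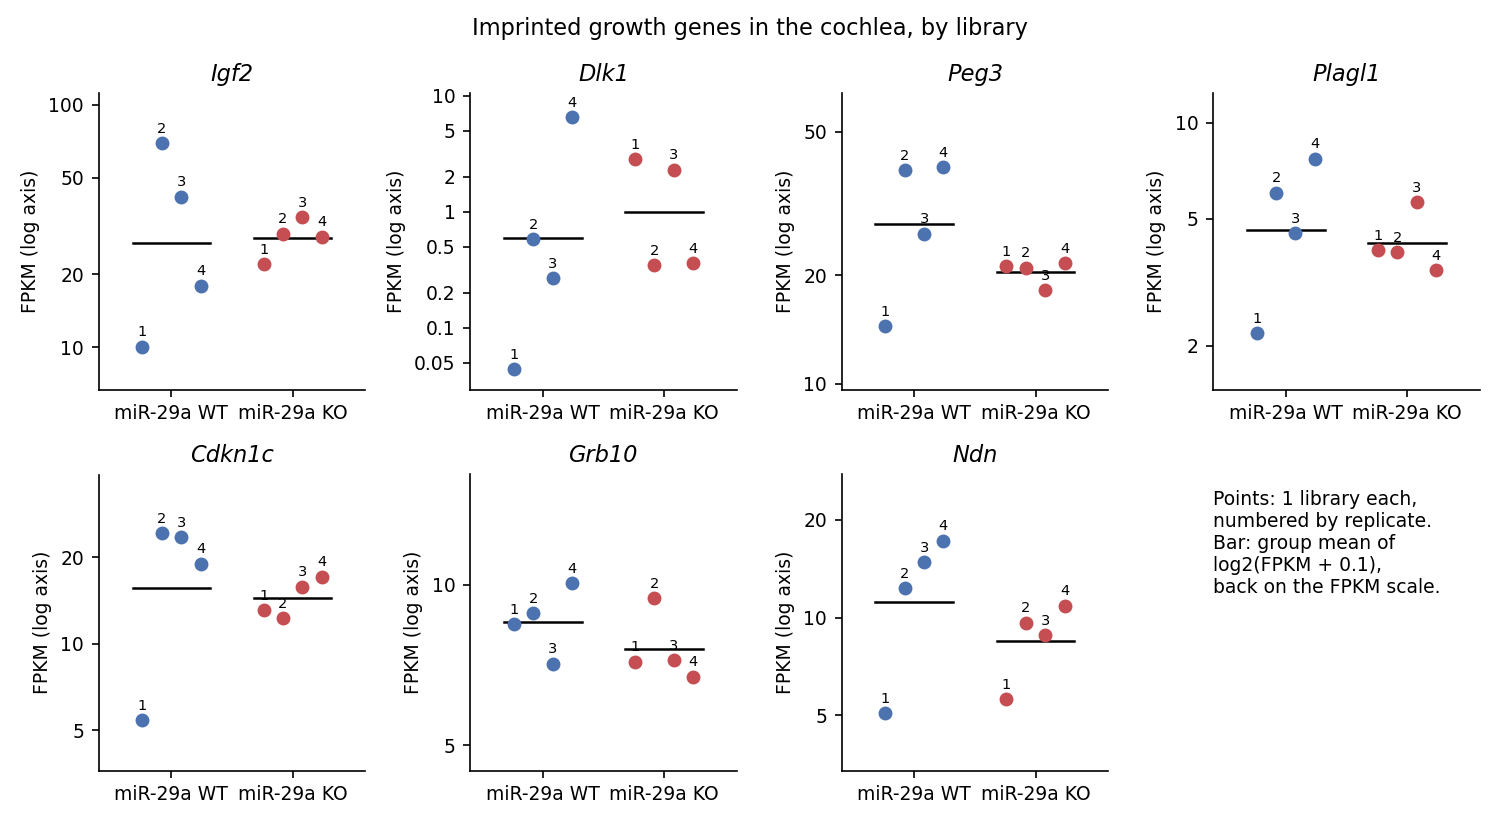
FPKM (log axis) of each gene in the 4 WT (blue) and 4 KO (red) libraries, with the replicate number above each point and a bar at the group mean on the log2 scale. WT1 is the lowest point for every gene but Grb10, and the KO points lie within the range of the WT points for Igf2, Peg3, Plagl1, Cdkn1c, Ndn and Dlk1.

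All 7 genes were among the 14990 tested, of which 767 were called with all 8 libraries (5.12%). Of these, 691 were higher in KO (4.61% of tested genes) and 76 were lower (0.507%). After median-ratio scaling the split was 450 higher and 304 lower, and after quantile normalization 378 higher and 547 lower. At an adjusted p under 0.05 limma called 0 genes (0.0%). For 525 genes the groups did not overlap (3.5%), and none of the 7 was among them. The exact permutation test, whose smallest p with 4 against 4 libraries is 0.0286, gave p from 0.314 for Peg3 to 0.943 for Igf2 and Cdkn1c. Over the 7 genes the median log2 fold change was -0.15, against 0.10 over all tested genes, and 5 of the 7 were below 0, as were 33.5% of all tested genes. Quantile normalization moved the median of all genes to -0.04 and that of the 7 to -0.30.

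Without WT1, 3 of the 7 genes were called and all 3 were lower. In that comparison 2922 of 15019 tested genes were called (19.5%), 1112 of them lower in KO (7.4%) and 1810 higher (12.1%), and limma again called 0 at an adjusted p under 0.05 (0.0%). All KO libraries lay below WT2 to WT4 for Peg3, Cdkn1c and Ndn, and for 1077 of the tested genes (7.17%). The median of the 7 genes was -0.50, against -0.02 over all tested genes, and all 7 were below 0, as were 53.3% of all tested genes. Without WT1 and WT3, the libraries with the highest and the lowest neutrophil sums, Plagl1 was called as well (log2 fold change -0.69, adjusted p = 0.22), beside Peg3 (-0.95), Cdkn1c (-0.57) and Ndn (-0.77). Of all 15055 genes tested there, 2430 were called (16.1%) and 1049 were lower (6.97%). Without WT1 and with median-ratio scaling 3 of the 7 were called, all lower, where 3186 of 15016 tested genes were called (21.2%) and 1165 were lower (7.76%).

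**Figure D2:**
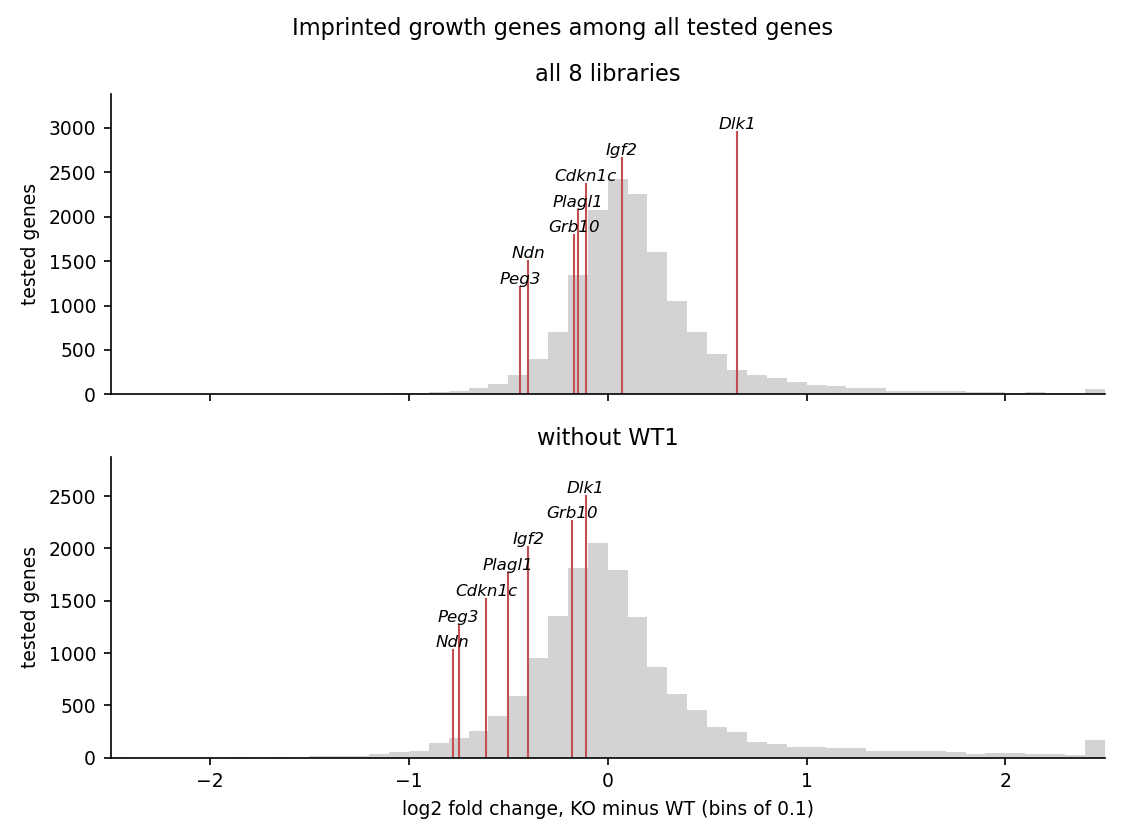
Number of tested genes by log2 fold change of KO over WT (bins of 0.1, values beyond the axis in the end bins), with all 8 libraries (upper panel) and without WT1 (lower panel), and a red line for each of the 7 genes. With all libraries the median of the 7 is -0.15 and that of all genes 0.10, and without WT1 they are -0.50 and -0.02.

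**Figure D3:**
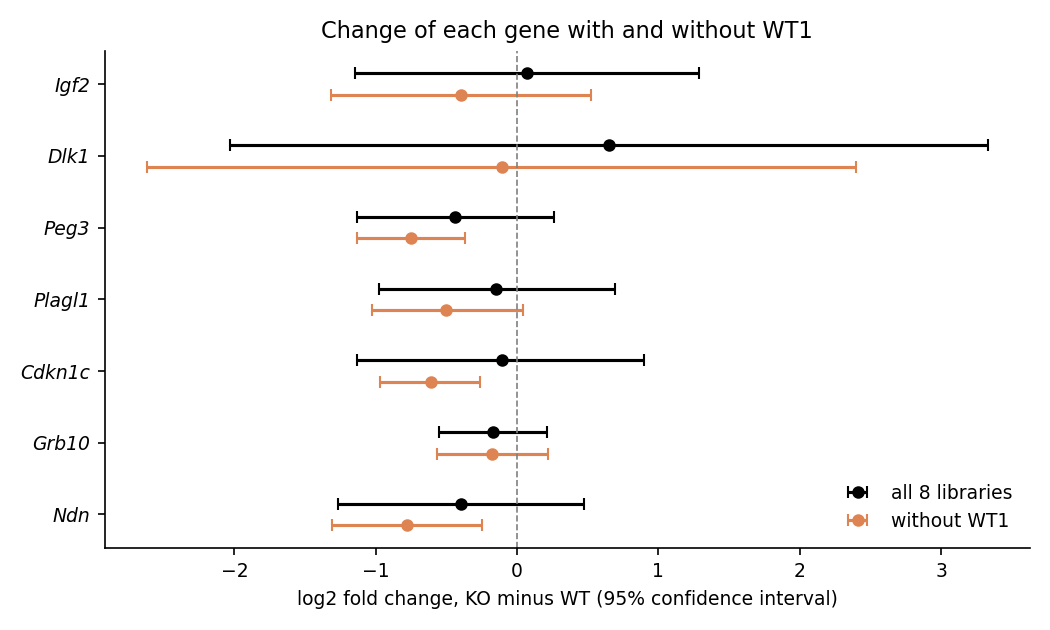
Log2 fold change of KO over WT for each gene, with its 95% confidence interval from limma, with all 8 libraries (black) and without WT1 (orange). With all libraries every interval includes 0, and without WT1 the intervals of Peg3, Cdkn1c and Ndn lie below 0.

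Igf2 (ENSMUSG00000048583, chr7:142650766-142666816, minus strand) encodes insulin-like growth factor 2, a secreted growth factor that signals through the IGF1 receptor. It was the highest of the 7 genes, with a mean of 31.7 FPKM ± 18.1 (SD, n = 8), above 93.6% of all listed genes. Its level was 10.05, 69.4, 41.7 and 17.9 FPKM in WT1 to WT4. In KO1 to KO4 it was 22.1, 29.5, 34.4 and 28.6 FPKM. The 4 KO libraries were close together and lay inside the 6.91-fold range of the WT libraries. The log2 fold change of KO over WT was 0.07 ± 0.54 (SE), with a 95% interval from -1.15 to 1.29 (limma, adjusted p = 0.992). This interval spans a KO level from 0.451 to 2.45 times that of WT, so a change within that range is compatible with these libraries. The smallest change that could be detected was not computed. Without WT1 the log2 fold change was -0.40 (adjusted p = 0.619). The sign with all 8 libraries depended on scaling, and was -0.01 after median-ratio scaling and -0.06 after quantile normalization. A read-through gene, Gm49394, shares 61.2% of the 50-base words of Igf2, and the antisense gene Igf2os overlaps Igf2 on the other strand.

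The level of Igf2 was set against the other ligand and the receptors of its pathway. It was 0.646 to 4.79 times that of Igf1 in WT and 1.28 to 2.13 times in KO. Igf1 itself, the main postnatal growth factor of the pathway, was 12.7 to 17.6 FPKM in WT and 16.1 to 17.2 FPKM in KO. Igf2r, the receptor that clears Igf2 from outside the cell, ranged from 13.7 to 18.2 FPKM over the 8 libraries. Ins2, the gene next to Igf2, was listed at 0 in 7 libraries and at 0.415 FPKM in WT2, and H19 was not analysed here. Of 15 tested genes of the IGF system, 2 were higher in KO and 0 lower at an unadjusted p under 0.05. The shares of all tested genes were 4.61% and 0.507%. The 2 called genes of the list are named as IGF-binding proteins. Igfbp7 was 19.1 to 27.9 FPKM in WT and 27.2 to 41.5 FPKM in KO (log2 fold change 0.73, adjusted p = 0.922). Igfbp4 was 23.7 to 59.1 FPKM in WT and 53.8 to 69.7 FPKM in KO (log2 fold change 0.73, adjusted p = 0.947), and its call was lost without WT3, KO1, KO2 or KO3. Igfbp5, the most abundant of the list, was 126.0 to 152.5 FPKM in WT and 116.4 to 144.4 FPKM in KO. The median log2 fold change of the list was 0.05, against 0.10 over all tested genes. Without WT1, 2 of the 15 were higher and 1 was lower, against 12.1% and 7.4% of all tested genes, with a median of -0.05. The lower gene, Igfbp2, was 12.2 FPKM in WT1, 45.4 to 94.3 FPKM in WT2 to WT4 and 32.5 to 40.3 FPKM in KO (log2 fold change -0.68 without WT1, adjusted p = 0.206), and was named after its values were seen.

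Grb10 (ENSMUSG00000020176, chr11:11930508-12038683, minus strand) encodes an adaptor protein that binds the insulin and IGF1 receptors and restrains their signal. It was the steadiest of the 7 genes. Its level was 8.44, 8.85, 7.11 and 10.1 FPKM in WT1 to WT4. The KO libraries, in the same order, had 7.18, 9.44, 7.22 and 6.73 FPKM. The groups overlapped, and the highest library of all 8 was only 1.5 times the lowest. The log2 fold change was -0.17 ± 0.17 (SE), with a 95% interval from -0.55 to 0.21, that is from 0.681 to 1.16 times the WT level (limma, adjusted p = 0.965). It was -0.18 without WT1 (adjusted p = 0.603). The neighbouring imprinted gene Ddc, which makes dopamine and serotonin, was 0.124 FPKM in WT1, 1.19 to 1.99 FPKM in the other WT libraries and 1.01 to 3.26 FPKM in KO.

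Cdkn1c (ENSMUSG00000037664, chr7:143458339-143461050, minus strand) encodes p57, an inhibitor of cyclin-dependent kinases that takes cells out of the cycle. Its level was 5.42, 24.3, 23.5 and 18.99 FPKM in WT1 to WT4. The KO libraries, in the same order, had 13.1, 12.2, 15.8 and 17.1 FPKM. All KO libraries lay between WT1 and the other 3 WT libraries. With all 8 libraries the log2 fold change was -0.11 ± 0.45 (SE), with a 95% interval from -1.13 to 0.90 (limma, adjusted p = 0.988). Without WT1 the change was -0.61 ± 0.15 (SE), with a 95% interval from -0.97 to -0.26 (limma, adjusted p = 0.145). The antisense gene Gm44732 overlaps Cdkn1c on the other strand.

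None of the tested genes near Cdkn1c in its imprinted domain was called with all 8 libraries. Kcnq1, a potassium channel of the marginal cells of the stria vascularis, was 5.30, 8.31, 11.8 and 7.82 FPKM in WT1 to WT4 and 4.63 to 6.95 FPKM in KO (log2 fold change -0.51, adjusted p = 0.947, and -0.70 without WT1, where it was called, adjusted p = 0.148). Slc22a18, a transporter, was 1.22 to 2.33 FPKM in WT and 0.734 to 2.0 FPKM in KO. Phlda2, which restrains growth of the placenta, was listed at up to 0.305 FPKM and at 0 in 3 libraries. Tspan32, a membrane protein gene of the same domain, was 12.3 FPKM in WT1, 0.718 to 4.97 in WT2 to WT4 and 6.5 to 9.65 in KO, and without WT1 it was called as higher (log2 fold change 1.76, adjusted p = 0.161). Cd81, Nap1l4 and Osbpl5 were not called with or without WT1, with log2 fold changes of -0.21, 0.20 and 0.22 without it. These 4 genes were named after their values were seen. Among 14 tested cyclins, kinases and other inhibitors, 2 were higher in KO and 0 lower, against 4.61% and 0.507% of all tested genes. Cdk6, a kinase of the G1 phase, was 1.66 to 3.67 FPKM in WT and 4.04 to 6.37 FPKM in KO (log2 fold change 0.88, adjusted p = 0.947). Cdkn2c, an inhibitor of that kinase, was 0.986 to 3.64 FPKM in WT and 3.68 to 8.40 FPKM in KO (log2 fold change 1.41, adjusted p = 0.947). For both, every KO library lay above every WT library. The groups did not overlap for 3.5% of all tested genes. Cdkn1b and Cdkn1a, the closest relatives of Cdkn1c and the most abundant genes of this list, did not pass, with log2 fold changes of -0.26 (adjusted p = 0.968) and 0.49 (adjusted p = 0.947). The median of the list was 0.33. Without WT1, 6 of the 14 were higher in KO, where 12.1% of all tested genes were, and 0 lower. Ccna2, a cyclin of dividing cells, was named after its values were seen. Its level was 25.8, 6.58, 0.709 and 7.12 FPKM in WT1 to WT4 and 9.67 to 25.6 in KO. WT3 also had the lowest erythroid and neutrophil sums. The part of marrow RNA in the levels of this list was not tested.

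Peg3 (ENSMUSG00000002265, chr7:6703892-6730431, minus strand) encodes a large zinc finger protein that regulates transcription and takes part in fetal growth and maternal behaviour. Its level was 14.5, 39.2, 26.1 and 39.9 FPKM in WT1 to WT4. The KO libraries, in the same order, had 21.2, 21.0, 18.2 and 21.6 FPKM. These differed by only 1.19-fold among themselves and all lay above WT1 and below the other WT libraries. With all 8 libraries the log2 fold change was -0.44 ± 0.31 (SE), with a 95% interval from -1.13 to 0.26 (limma, adjusted p = 0.947). Without WT1 it was -0.75 ± 0.17 (SE), with a 95% interval from -1.13 to -0.37 (limma, adjusted p = 0.145). Its partners in the domain were far lower. Usp29 was 1.5 to 3.25 FPKM in WT and 1.36 to 2.58 FPKM in KO, and Zim1 was 0.563 to 1.78 FPKM in WT and 0.584 to 1.45 FPKM in KO. Peg3 stood at 9.62 to 15 times Usp29 in WT and 8.20 to 14.3 times in KO, and neither partner passed the test with or without WT1.

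Plagl1 (ENSMUSG00000019817, chr10:13060504-13131694, plus strand) encodes a zinc finger transcription factor that can arrest the cell cycle and is known to act on other imprinted genes. Its level was 2.19, 6.03, 4.50 and 7.71 FPKM in WT1 to WT4. In KO1 to KO4 it was 3.98, 3.94, 5.64 and 3.45 FPKM. Of the KO libraries, KO1, KO2 and KO4 lay below WT2 to WT4, and KO3 lay among them. The log2 fold change was -0.15 ± 0.37 (SE) with all 8 libraries (limma, adjusted p = 0.983) and -0.50 without WT1 (adjusted p = 0.283). Neither relative of Plagl1 was called with all 8 libraries. Plag1 had a log2 fold change of -0.33 (adjusted p = 0.95) and Plagl2 of 0.42 (adjusted p = 0.947), and without WT1 Plagl2 was called as higher in KO (0.60, adjusted p = 0.148). Both were named after their values were seen.

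Ndn (ENSMUSG00000033585, chr7:62346569-62350262, plus strand) encodes necdin, a MAGE family protein of neurons that restrains proliferation. Its level was 5.07, 12.3, 14.8 and 17.2 FPKM in WT1 to WT4. In KO1 to KO4 it was 5.61, 9.66, 8.84 and 10.9 FPKM. The 4 KO libraries lay above WT1 and below the other WT libraries, and KO1 was close to WT1. With all 8 libraries the log2 fold change was -0.40 ± 0.38 (SE), with a 95% interval from -1.27 to 0.47 (limma, adjusted p = 0.963). Without WT1 it was -0.78 ± 0.23 (SE), with a 95% interval from -1.31 to -0.25 (limma, adjusted p = 0.154). The imprinted genes of the Ndn domain ran from near 0 to above Ndn. Magel2, the nearest MAGE relative, was at most 0.0327 FPKM and was listed at 0 in 3 libraries, and Mkrn3 was 0.226 to 0.769 FPKM. Snrpn, a splicing factor gene of the same domain, was 12.1 FPKM in WT1, 60.3 to 64.0 FPKM in WT2 to WT4 and 33.5 to 58.9 FPKM in KO, with a log2 fold change of 0.14 (adjusted p = 0.987) and, without WT1, of -0.45, where it was called (adjusted p = 0.231). Ube3a, a ubiquitin ligase gene, was 21.4 to 31.3 FPKM and Atp10a 6.13 to 8.09 FPKM over the 8 libraries, and neither was called with or without WT1. These 3 genes were named after their values were seen. Of 9 tested relatives of the 7 genes, 0 passed in either direction with all 8 libraries, 2 by median-ratio scaling and 2 by quantile normalization. Among all tested genes, 5.12% were called with all 8 libraries, and 754 of 14988 and 925 of 14990 after these scalings. Without WT1, 1 of the 9 was higher and 2 were lower, against 12.1% and 7.4% of all tested genes. Maged1, the most abundant relative, had a log2 fold change of -0.19 (adjusted p = 0.947) and of -0.28 without WT1 (adjusted p = 0.219), and Magee1 of 0.05 (adjusted p = 0.992).

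The windows from 250 bases before to 50 bases after the RefSeq start of Peg3 and Ndn are shown because both genes were lower in KO without WT1 and because CpG sites are the letters that imprinting methylates. Windows were found for 6 of the 7 genes, and for Cdkn1c none was matched. Capitals mark each CG, which reads the same on both strands. The Peg3 window (GRCm38.p6, chr7:6730370-6730669, minus strand) holds 13, and 37.9% of 32851 windows of the same length hold as many or more. The Ndn window (chr7:62348027-62348326, plus strand) holds 11, and 41.4% of windows hold as many or more. This window lies inside Ndn as annotated in GENCODE M21 (chr7:62346569-62350262), so RefSeq and GENCODE place the start of Ndn differently.
Peg3: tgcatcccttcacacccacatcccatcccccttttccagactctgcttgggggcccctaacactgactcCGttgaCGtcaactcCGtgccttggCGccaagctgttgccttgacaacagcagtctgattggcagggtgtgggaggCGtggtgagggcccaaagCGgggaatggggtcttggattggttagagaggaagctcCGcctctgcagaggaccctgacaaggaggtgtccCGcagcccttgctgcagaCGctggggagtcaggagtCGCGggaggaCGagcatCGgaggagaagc
Ndn: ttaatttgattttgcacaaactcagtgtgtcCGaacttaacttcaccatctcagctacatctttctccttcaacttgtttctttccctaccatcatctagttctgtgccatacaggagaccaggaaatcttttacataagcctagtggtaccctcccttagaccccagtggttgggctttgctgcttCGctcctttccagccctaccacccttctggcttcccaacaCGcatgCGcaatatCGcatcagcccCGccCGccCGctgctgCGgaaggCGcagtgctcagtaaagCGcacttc

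Of the other members, the window of Plagl1 holds 26 CG, that of Dlk1 holds 9, those of the 2 starts of Grb10 hold 9 and 45, and those of the 4 starts of Igf2 hold 2 to 24. No methylation was measured in these samples, so nothing can be read from the windows about the imprint.

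Dlk1 (ENSMUSG00000040856, chr12:109452823-109463336, plus strand) encodes a transmembrane and secreted protein related to Notch ligands that holds precursor cells undifferentiated and is also made in the pituitary. It was the lowest and most variable of the 7 genes. Its level was 0.0439, 0.579, 0.268 and 6.53 FPKM in WT1 to WT4. In KO1 to KO4 it was 2.82, 0.347, 2.30 and 0.360 FPKM. WT4, KO1 and KO3 were high, WT2, WT3, KO2 and KO4 were low, and WT1 was close to 0, at a value that stands for 0.6 to 5.3 fragments depending on the transcript. The log2 fold change was 0.65 ± 1.18 (SE), with a 95% interval from -2.03 to 3.33 (limma, adjusted p = 0.983). It was -0.11 without WT1 (adjusted p = 0.968) and 2.15 with replicates 1 to 3 only (adjusted p = 0.981), so its sign rested on which libraries were used.

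The libraries with high Dlk1 (WT4, KO1 and KO3) were those with the highest levels of the pituitary markers growth hormone, Prl and Cga. This did not hold for every pituitary marker, and Pomc was 9.71 FPKM in KO4 and 7.53 FPKM in KO1. Growth hormone (Gh), the most abundant pituitary marker, was 0.844, 51.6, 52.8 and 1277.9 FPKM in WT1 to WT4. In KO1 to KO4, Gh was 266.1, 63.3, 603.8 and 46.4 FPKM. The 3 libraries with the highest Dlk1 had the 3 highest levels of Gh, and WT1 had the lowest of both. The summed FPKM of the 8 pituitary markers was 1.75 to 1708.4 in WT and 62.9 to 757.3 in KO, and Lhb was at 0 in every library. On the log2 scale, Dlk1 and the mean of these markers had a Pearson r of 0.973 (exact permutation p = 0.00114, adjusted p = 0.0639 over 112 pairs of member and marker list, n = 8). Spearman's rho was 0.762 (exact permutation p = 0.0368, adjusted p = 0.206). Without WT4 and KO3, the 2 libraries farthest from the median of the markers, r was 0.945, and without WT1 it was 0.962. The genes whose log2 values were most like Dlk1 over the 8 libraries, of 14126 genes compared, were Prl (r = 0.972), Cga (r = 0.957) and Gnrh1 (r = 0.925), of which Prl and Cga are among the 8 markers. The part of pituitary RNA in the Dlk1 level was not tested. Of its neighbours in the domain, Rtl1 was at most 0.283 FPKM and Dio3 at most 0.360 FPKM, and Meg3 was not analysed here.

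**Figure D4:**
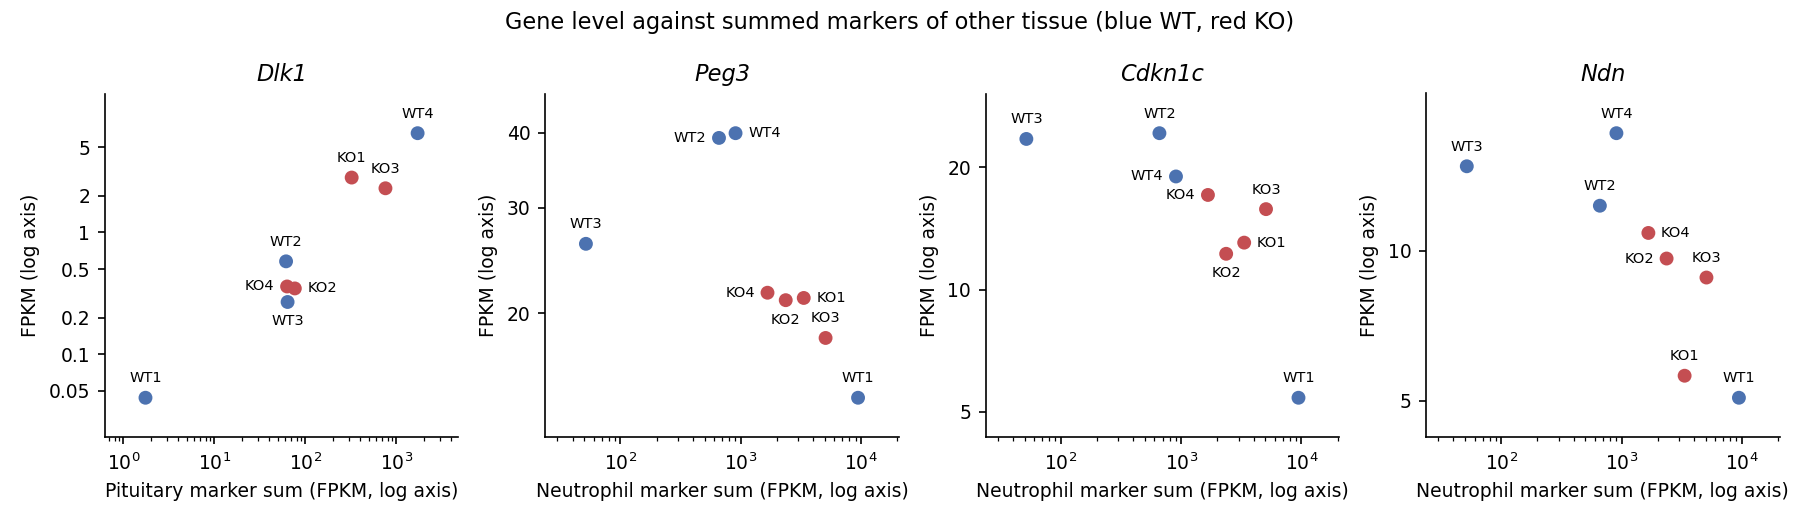
FPKM of 4 genes (log axis) against the summed FPKM of marker genes in the same library (log axis), the pituitary list for Dlk1 and the neutrophil lineage list for Peg3, Cdkn1c and Ndn, 1 point per library. WT4, KO1 and KO3 are highest on both axes for Dlk1, and WT1, with the highest neutrophil sum of 9442.9, is lowest for the other 3 genes.

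In FPKM, the order of mean levels was Igf2, Peg3, Cdkn1c, Ndn, Grb10, Plagl1 and Dlk1. Igf2 was above Peg3 in 6 of 8 libraries, and Ndn was above Grb10 in 6 of 8, so these neighbours were not separated by their spread. Peg3 was above Cdkn1c, Cdkn1c above Ndn, Grb10 above Plagl1 and Plagl1 above Dlk1 in all 8. Over the 21 pairs of the 7 genes, the highest r was 0.821, for Igf2 and Cdkn1c on the log2 scale (exact permutation p = 0.0156, adjusted p = 0.0708), with a rho of 0.643 (exact permutation p = 0.0962, adjusted p = 0.252). It was 0.303 without WT1 and WT2. For Cdkn1c and Ndn r was 0.82 (exact permutation p = 0.00613, adjusted p = 0.0708) and rho 0.833 (exact permutation p = 0.0154, adjusted p = 0.108), and r was 0.773 without WT1 and WT2. No pair passed after adjustment.

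Marrow markers ran opposite to Peg3, Cdkn1c and Ndn. The neutrophil lineage sum was higher in every KO library (1669.4 to 5072.5 FPKM) than in WT2 to WT4 (51.7 to 905.7 FPKM) and highest in WT1, while Peg3, Cdkn1c and Ndn were lowest in WT1, intermediate in KO and highest in WT2 to WT4. Against the mean log2 level of that list, in the same family of 112 pairs, Spearman's rho was -0.881 for Peg3 and for Cdkn1c (exact permutation p = 0.00724 each, adjusted p = 0.12) and -0.905 for Ndn (exact permutation p = 0.00456, adjusted p = 0.12, n = 8). Pearson's r was weaker, at -0.518 for Peg3 (exact permutation p = 0.196, adjusted p = 0.459), -0.687 for Cdkn1c (exact permutation p = 0.10, adjusted p = 0.321) and -0.693 for Ndn (exact permutation p = 0.0449, adjusted p = 0.251). Without WT1 r was -0.382, -0.719 and -0.615, and without WT1 and WT3 it was -0.946, -0.769 and -0.744. Peg3, Cdkn1c and Ndn were singled out by their calls without WT1, which fixes part of their order over the libraries. The permutations shuffled all 8 libraries regardless of genotype, so a difference between the groups counts toward these correlations. The sum of 8 erythroid genes, with Hbb-bs the highest, was 449.5 to 3601.6 FPKM in WT2 to WT4, 7480.9 in WT1 and 4904.6 to 12105.2 in KO. For 6 B cell precursor genes, with Cd79a the highest, the sum was 25.0 FPKM in WT1. It was 1.36 to 13.2 FPKM in WT2 to WT4 and 19.7 to 54.9 FPKM in KO. Spearman's rho with their mean log2 level was -0.595 for Peg3, -0.738 for Cdkn1c and -0.619 for Ndn (exact permutation, adjusted p = 0.385, 0.214 and 0.358). For 8 osteoblast and osteocyte genes, with Col1a1 the highest, the sum was 106.4 to 546.2 FPKM in WT and 640.0 to 785.2 FPKM in KO. Of the 8, Col1a1 alone had groups that did not overlap, and the mean log2 level of the list overlapped, at 2.89 to 5.43 in WT and 5.14 to 5.65 in KO. With all 8 libraries, 4 of the 6 B cell precursor and 2 of the 8 erythroid genes were called as higher in KO. So were 1 of the 8 bone genes and 0 of the 8 neutrophil genes, against 4.61% of all tested genes. Without WT1, 5 B cell precursor, 8 erythroid, 4 bone and 8 neutrophil genes were, against 12.1%. The part of marrow and bone RNA in the lower levels of Peg3, Cdkn1c and Ndn was not tested, and in bulk RNA fewer cells of a type and less RNA per cell cannot be told apart.

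Markers of several other cell types ran in the same direction as Peg3, Cdkn1c and Ndn. The sum over 6 stria vascularis genes, with Slc12a2 the highest, was 152.4 FPKM in WT1, 319.5 to 422.9 in WT2 to WT4 and 228.0 to 303.2 in KO. Cdkn1c and their mean log2 level were correlated (r = 0.902, exact permutation p = 0.000942, adjusted p = 0.0639, and rho = 0.952, exact permutation p = 0.00114, adjusted p = 0.12), and r was 0.908 without WT1 and WT3. The relation was not seen with the stria list alone. The r of Cdkn1c was 0.927 with leptomeningeal fibroblast, 0.921 with myelinating glia, 0.886 with chondrocyte and 0.87 with supporting cell markers (exact permutation, adjusted p = 0.0815, 0.0639, 0.124 and 0.0886), with a rho of 0.667, 0.81, 0.738 and 0.738 (exact permutation, adjusted p = 0.291, 0.152, 0.214 and 0.214). Without WT1 and WT3 these r were 0.602, 0.743, 0.315 and 0.45. For Ndn r was 0.897 (exact permutation p = 0.00211, adjusted p = 0.0639) and rho 0.905 (exact permutation p = 0.00456, adjusted p = 0.12), and r was 0.868 without these 2 libraries. With supporting cell, hair cell and myelinating glia markers the r of Ndn was 0.87, 0.842 and 0.804 (exact permutation, adjusted p = 0.0717, 0.119 and 0.0886), with a rho of 0.857, 0.762 and 0.857 (exact permutation, adjusted p = 0.12, 0.206 and 0.12). It was 0.845 and 0.856 for supporting cells and glia without WT1 and WT3, and 0.378 for hair cells without WT1 and KO1. Without WT1, 4 of the 6 stria genes were called as lower in KO, where 7.4% of all tested genes were. The sum of 6 neuronal genes, with Snap25 the highest, was 265.7 FPKM in WT1, 648.4 to 901.2 in WT2 to WT4 and 568.5 to 762.8 in KO. Ndn and their mean log2 level had an r of 0.794 (exact permutation p = 0.00689, adjusted p = 0.0886) and a rho of 0.762 (exact permutation p = 0.0368, adjusted p = 0.206), and r was 0.624 without WT1 and WT3. With leptomeningeal fibroblast markers the r of Ndn was 0.794 and rho 0.69 (exact permutation, adjusted p = 0.0886 and 0.268). For Peg3 and the stria markers r was 0.692 and rho 0.81 (exact permutation, adjusted p = 0.285 and 0.152). Without WT1 and WT3 these r were 0.661 and 0.727. The choice of Peg3, Cdkn1c and Ndn by their calls without WT1 bears on these correlations too. The part of any of these cell types in the levels of Peg3, Cdkn1c and Ndn was not tested. The genes with log2 values most like those of Cdkn1c were Wwc1 (r = 0.996), Col9a3 (r = 0.995) and Vangl2 (r = 0.99). For Ndn they were Map4 (r = 0.99), Arhgef28 (r = 0.988) and Nt5m (r = 0.987), and for Peg3 Tenm4 (r = 0.986), Tgfbr3l (r = 0.984) and Fam84a (r = 0.98). Plagl1 was most like Adamtsl4 (r = 0.985), 1110017D15Rik (r = 0.98) and Rab18 (r = 0.971). Igf2 was most like Slc31a1 (r = 0.984), Mrpl20 (r = 0.947) and Zfp563 (r = 0.947), and Grb10 was most like Ss18l2 (r = 0.943), Coro2a (r = 0.926) and Adgrg1 (r = 0.891). These are the highest of 14126 genes over 8 libraries and are a description.

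Imprinted genes outside the 7 were counted in the same way. Of 52 listed, 47 had a row and 36 were tested, and with all 8 libraries 0 were higher and 1 was lower in KO, with a median log2 fold change of -0.05. Among all tested genes 4.61% were higher and 0.507% lower, with a median of 0.1. The listed gene that was lower was Ppp1r9a, which encodes neurabin, an actin-binding protein of synapses. Its level was 6.91, 8.16, 7.85 and 6.98 FPKM in WT1 to WT4, and 5.07, 5.46, 5.4 and 6.42 FPKM in KO1 to KO4. These groups did not overlap, and the log2 fold change was -0.41 (limma, adjusted p = 0.947), a call that was lost without WT2. Gnas and Dcn, the most abundant of the list, had log2 fold changes of 0.15 (adjusted p = 0.977) and 0.22 (adjusted p = 0.968). Without WT1, 1 of the 36 was higher and 7 were lower, against 12.1% and 7.4% of all tested genes, with a median of -0.28.

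Genes that keep imprints in place did not pass the test with all 8 libraries (0 of 9 in either direction), where 5.12% of all tested genes did. Zfp445, which binds imprinted control regions, was 30.9 to 45.3 FPKM in WT and 33.3 to 48.7 FPKM in KO (log2 fold change -0.02, adjusted p = 0.992). Trim28, its corepressor, had a log2 fold change of 0.24 (adjusted p = 0.947). Without WT1, 3 of the 9 were higher in KO (Uhrf1, Dnmt1 and Ctcf), where 12.1% of all tested genes were, and 0 lower. Uhrf1, which guides the maintenance of DNA methylation, was 11.3, 5.01, 0.483 and 6.15 FPKM in WT1 to WT4 and 8.5 to 16.4 in KO. The erythroid and neutrophil sums were also lowest in WT3. Uhrf1 was named after its values were seen, and the part of marrow RNA in these calls was not tested. Of 11 tested genes of fetal and neonatal growth, 2 were higher and 0 lower with all 8 libraries. The shares of all tested genes were 4.61% and 0.507%. The median of the 11 was 0.04, against 0.1 over all tested genes. The 2 higher genes were Hmga1, a chromatin protein of growing tissue (log2 fold change 0.63, adjusted p = 0.947) and Sox4, a transcription factor of precursor cells (0.80, adjusted p = 0.947). The call of Hmga1 was lost when any of WT2 to WT4 or KO1 to KO3 was left out, and that of Sox4 when WT2 or any KO library was left out. Ptn and Ezh2, the most abundant of that list, had log2 fold changes of 0.03 (adjusted p = 0.996) and 0.66 (adjusted p = 0.947). Without WT1, 3 of the 11 were higher and 4 were lower, against 12.1% and 7.4% of all tested genes, with a median of -0.32.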

How the data were processed

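The authors made strand-specific libraries from cochlear RNA after ribosomal RNA had been removed, mapped paired-end reads with Hisat2 and tested counts with DESeq2. They deposited FPKM per gene and library. The tool and annotation behind the FPKM are not given in the sources used here. The submitters' processing notes name mm9, but 19771 of 21760 gene identifiers found in GENCODE M21 had the same coordinates as on GRCm38, so positions are given on that build. All columns of the 8 libraries were used and 0 were left out.

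The 7 genes and the gene lists were chosen with earlier results of these data known. Differences in log2(FPKM + 0.1) were tested by limma (version 3.58.1, under R version 4.3.3; genotype as the only factor, moderated variances with a mean-variance trend), for genes with a mean of at least 0.5 FPKM, with p-values adjusted by Benjamini-Hochberg over all tested genes. A fold change on this scale understates the change of low genes. Genes with an unadjusted two-sided p under 0.05 were called, the threshold the study used. The legend of the study's RNA-seq figure gives 3 per group and does not say which, so all 8 were compared here, and replicates 1 to 3 were an alternative. Single values and correlations were compared by exact two-sided permutation tests over libraries. Those of correlations shuffled the libraries regardless of genotype. FPKM carry no counts, so depth was estimated from the smallest steps between low values of 4261 genes with 1 annotated transcript. Counting error alone could not be given.

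Genes named beside the 7 were, in each list, those called (at most 5) and the 2 with the highest mean, fixed neighbours in each imprinted domain, the highest marker of each list the text uses and any marker at 0 in every library, and for each of the 7 the 3 genes with the highest Pearson r. Alternatives were another pseudocount (1), no filter or a minimum of 1 FPKM, median-ratio scaling, quantile normalization, no variance trend, the replicate number as a block, replicates 1 to 3 only, and leaving out each library. Leaving out WT1 with median-ratio scaling, and WT1 with WT3, were added after seeing the data. Promoter windows and the miRNA are from RefSeq (GRCm38.p6), and windows were matched by symbol for 6 of the 7 genes.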

Additional observations from a re-analysis of the deposited data

Results flagged for a closer look

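Within a group of 4 libraries, a value was listed here when its gap to the nearest other value exceeded Dixon's 95% limit for 4 values, as a share of the group's range. Chance alone lists about 1 in 20 groups, and 14 groups were examined on each of the 2 scales, FPKM and log2. Dlk1 in WT4, at 6.53 FPKM, stood above the other WT libraries, with a gap of 0.918 of their range. Peg3 in KO3, at 18.2 FPKM, stood below the other KO libraries on the log2 scale (0.834 of the range), although the KO libraries differed by only 1.19-fold. Cdkn1c in WT1, at 5.42 FPKM, stood below the other WT libraries on the log2 scale (0.836 of the range).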

How the results depend on the processing

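No member was called in any alternative that kept WT1, and each of the 3 that left it out called 3 or 4 of the 7, where 16.1% to 21.2% of all tested genes were called. The log2 fold change of Igf2 turned negative after median-ratio scaling (-0.01), quantile normalization (-0.06) and with replicates 1 to 3 only (-0.13), where that of Plagl1 was 0.18, that of Grb10 -0.04 and that of Dlk1 2.15. Without WT1 and with median-ratio scaling, 3186 of 15016 genes were called (1165 lower), 3 of the 7 among them, and the log2 fold changes were -0.37 for Igf2, -0.08 for Dlk1, -0.72 for Peg3, -0.59 for Cdkn1c and -0.75 for Ndn. The same setting called 6 cell cycle genes, 3 relatives, 9 other imprinted genes, 3 maintenance genes and 7 growth genes (median of these -0.30).

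With 1 library, or WT1 and WT3, left out, the log2 fold change ranged from -0.40 to 0.53 for Igf2, -0.95 to 1.73 for Dlk1, -0.95 to -0.26 for Peg3, -0.69 to 0.09 for Plagl1, -0.61 to 0.10 for Cdkn1c, -0.31 to -0.10 for Grb10 and -0.78 to -0.20 for Ndn. Cdkn1c turned positive without WT2 (0.10) or WT3 (0.08), Plagl1 without WT4 (0.09), and Igf2 turned negative without WT4 (-0.12) or KO3 (-0.02). Of all tested genes 347 to 2922 were called (347 without KO3, 377 without KO2, 2922 without WT1), and of the 7 genes 0 to 4, with a median of -0.69 to -0.02. Counts called ranged from 2 to 6 (median 0.27 to 0.53) for cell cycle genes, 1 to 3 for the IGF system, 0 to 3 for maintenance genes (median 0.08 to 0.27), 0 to 7 for growth genes (median -0.32 to 0.12), 0 to 11 for other imprinted genes and 0 to 3 for relatives.

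Of the lists, the relatives had 2 genes called after median-ratio scaling and 2 after quantile normalization, and other imprinted genes 4 and 5. Among all tested genes, 754 of 14988 and 925 of 14990 were called there, 304 and 547 of them lower. A pseudocount of 1 called 1 maintenance gene. The growth genes had 1 called with no filter and 1 without the variance trend, and the cell cycle genes had a median of 0.60 with replicates 1 to 3. The pseudocount of 1, no filter and no variance trend called 812 of 14990, 976 of 18601 and 766 of 14990 tested genes. The cause of these shifts was not tested. Under the replicate block, which adds the replicate number to the model, 838 genes were called, none of the 7 among them (smallest adjusted p = 0.767, for Peg3 and Ndn), and 4 other imprinted, 2 maintenance, 1 growth, 3 IGF system and 3 cell cycle genes. Deviations of same-numbered libraries correlated at 0.419, -0.24, -0.17 and 0.21, so the numbers were not taken to pair the libraries. Hmga1 lost its call after median-ratio scaling and quantile normalization, and Sox4 with no filter, without the variance trend and under the block. FPKM give no counting error, and Dlk1 in WT1 rests on 0.6 to 5.3 fragments.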
